A study of Mus musculus with 56 samples.

Results

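The circular RNAs (circRNAs) described here are the 81 that carried a novel_circ_ name and were above 0 in all 56 liver libraries. They were chosen by their deposited values, and they were 81 of 1848 circRNAs with such a name and 3.44% of the 2352 circRNAs of the table. The other 504 circRNAs had catalogue names of the form mmu_circ_, and 67 of those were also above 0 in every library. Detection in all 56 libraries was the rule that chose the members, so their constant presence is a property of the choice and not a result. A circRNA switched off in either feeding regimen could not have been a member.

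A circRNA forms when the spliceosome joins a downstream splice donor to an upstream acceptor, a reaction called back-splicing that closes the transcript into a ring. Rings have no free ends, so they escape exonucleases and outlast many linear transcripts of the same gene. RNA-binding proteins that bring flanking introns together favour the reaction, and enzymes that unwind or edit paired introns oppose it. In sequencing data a circRNA is recognised by reads that cross the back-splice junction. The novel_circ_ names were assigned within this series and stand beside the catalogue names. The files pair these names with no host gene, position or sequence, so each member is described by its levels.

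The livers came from female C57BL/6J mice aged 9 weeks, kept on 12 h of light and 12 h of dark, which had received food during the day alone (daytime-restricted feeding, DRF) or during the night alone (nighttime-restricted feeding, NRF) for the preceding 7 days. Sampling times are zeitgeber times (ZT), counted in h from lights on, and ran from ZT0 to ZT24 in steps of 4 h, with 4 mice per regimen and time, giving 14 groups and 28 libraries per regimen. NRF was the reference. All mice were intact animals without a transgene or a mutation named in the labels, and all shared the same week of entrainment before the regimens began. RNA was from whole liver, so fewer cells of a type and less RNA per cell cannot be told apart. Hepatocyte genes marked the tissue: Ttr ranged from 3297 to 5852 scaled counts over the 56 libraries, and the bile duct gene Krt19 from 0.708 to 4.27.

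The libraries held between 5305 and 18879 junction reads, with a median of 11590 under DRF and 11181 under NRF. The 81 members took 24.004% of all junction reads, between 22.3% and 26.9% in the DRF libraries and between 19.5% and 28.3% in the NRF libraries. All circRNAs with a novel_circ_ name together took 66.0%. A library of the NRF regimen, ZT16 replicate 3, stood apart from its group. It had the fewest junction reads, and over the 148 circRNAs above 0 in all libraries it differed from the other animals of its group by a root mean square of 1.17 on the log2 scale, where the median library differed by 0.536. Next was NRF ZT12 replicate 3 at 0.958, and every library of NRF ZT12 and NRF ZT16 differed from its group by at least 0.658. By this measure the animals agreed less well in both of these groups. Each library was compared with the mean of the others, so an outlying library also raised the distances of its group mates. Single libraries of other groups lay as far out, such as NRF ZT20 replicate 1 (0.81, with 5735 junction reads) and DRF ZT24 replicate 1 (0.682). Adjusted counts of members called are given with and without NRF ZT16 replicate 3. In another library, NRF ZT8 replicate 4, 28 circRNA values had been scaled a further time by a factor of 73.2. They included novel_circ_0005853, novel_circ_0011199 and novel_circ_0012079 among the members and were divided by that factor.

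Levels are given as scaled junction-read values, which are the deposited log2 values taken back to a linear scale. A single junction read was worth between 54.7 and 117.7 units, depending on the library. Because every value counts 1 junction, levels of different circRNAs can be set side by side without a length correction. The mean value over 56 libraries ranged from 435 for novel_circ_0005357 to 15734 for novel_circ_0010414, a ratio of 36.2, with a median of 1382 over the 81 members. Reads were few behind most of them. The median library had 17 junction reads for the median member, 7 members had a median below 10 reads, and 17 members had a library with 2 reads, the lowest number above 0 in the table. The 67 catalogued circRNAs above 0 in every library had a median of 20 reads, and the 1050 other circRNAs tested a median of 4.

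The members were unequal. The 6 highest took 29.1% of the members' reads, and 14 members supplied 50% of them. The highest, novel_circ_0010414, ranged from 57 to 429 reads with a median of 184. Next came novel_circ_0004559 with a mean value of 12591, novel_circ_0003896 with 8468 and novel_circ_0009351 with 8117. They were followed by novel_circ_0011229 at 7777 and novel_circ_0002722 at 6984. The step down from novel_circ_0004559 to novel_circ_0003896 was larger than the SD of either over 56 libraries (2912 and 2834), and no other step between neighbours among these 6 exceeded both SDs. At the other end, novel_circ_0004050 had a mean value of 631 ± 258 (SD, n = 56) and novel_circ_0009151 a mean of 630.3 ± 270.4, with medians of 8 and 7 reads. The lowest member, novel_circ_0005357, had a mean of 435 ± 195 (SD, n = 56) and a median of 6 reads. These levels lie close to the rule's edge. Just outside it, 45 circRNAs with a novel_circ_ name were above 0 in 55 libraries, with mean values from 406 to 2559. The library in which each was at 0 was an NRF library for 32 of the 45 and a DRF library for 13, and 24 different libraries were involved. The libraries with the fewest junction reads were also of NRF: ZT16 replicate 3 (5305), ZT16 replicate 1 (5588) and ZT20 replicate 1 (5735). The part of read depth in this split was not tested, and the split was not tallied over all circRNAs.

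**Figure D1:**
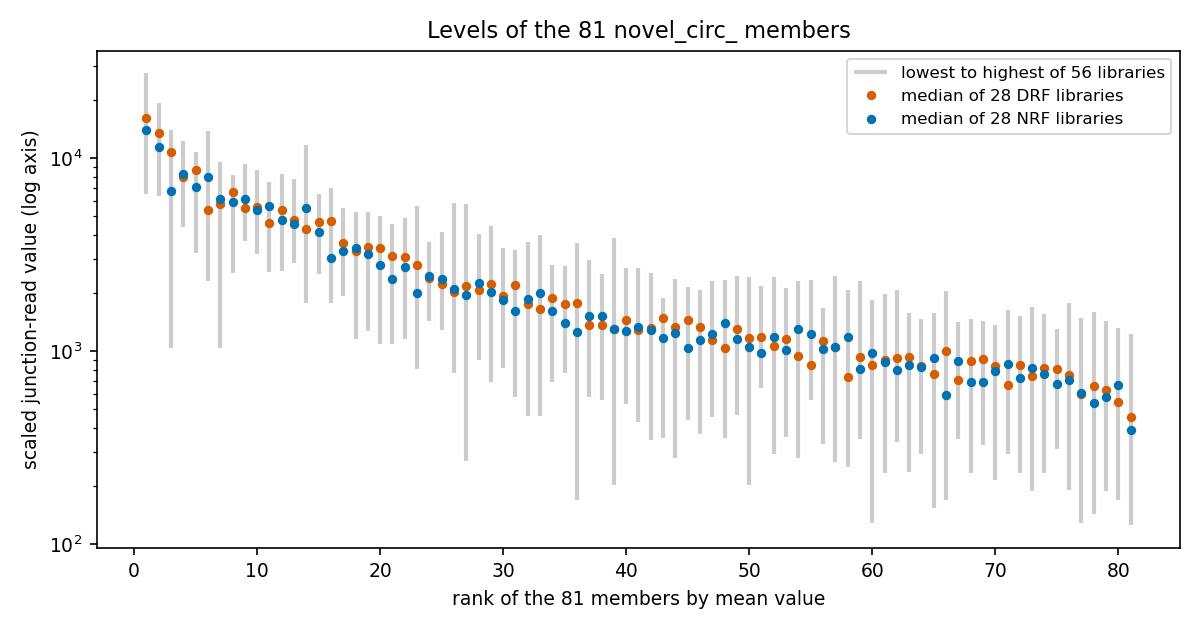
Scaled junction-read value (log axis) of each of the 81 members against its rank by mean value. Grey bars span the lowest to the highest of 56 libraries, and points are the medians of 28 DRF (orange) and 28 NRF (blue) libraries. Levels fall from a mean of 15734 at rank 1 to 435 at rank 81, and the ranges of neighbouring members overlap throughout.

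The coefficient of variation (CV) over the 56 libraries ran from 18.03% to 53.7%, with a median of 34.4%. The steadiest member was novel_circ_0009351. Its values ran from 5309 through a median of 8036 to 10293 in the DRF libraries and from 4403 through 8304 to 12216 in the NRF libraries. The DRF to NRF ratio of its daily mean was 0.972 (95% confidence interval 0.882 to 1.07). Also steady were novel_circ_0005505, with a CV of 19.2%, and novel_circ_0011229, with 20.5%. The most variable were novel_circ_0012510 at 53.7%, novel_circ_0012079 at 52.5% and novel_circ_0011199 at 51.5%. The latter pair held values that had been divided by the factor given above.

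How much of this spread was counting error was examined by dividing the variance between the 4 animals of a group by the variance that junction counting alone would give. The ratio is 1 where animals differ no more than repeated counts would. Over the 81 members it ranged from 0.941 to 9.68, with a median of 1.78. In 25 members it was at most 1.5, and in 32 it was above 2. The lowest ratio belonged to the low-level novel_circ_0004050 and the highest to novel_circ_0010414, the member with the most reads. The ratio did not follow reads alone: it was 2.22 in novel_circ_0011229 at a median of 100 reads and 4.43 in novel_circ_0012079 at a median of 17. The catalogued circRNAs above 0 in every library had a median ratio of 1.72 and a median CV of 33.2%.

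**Figure D2:**
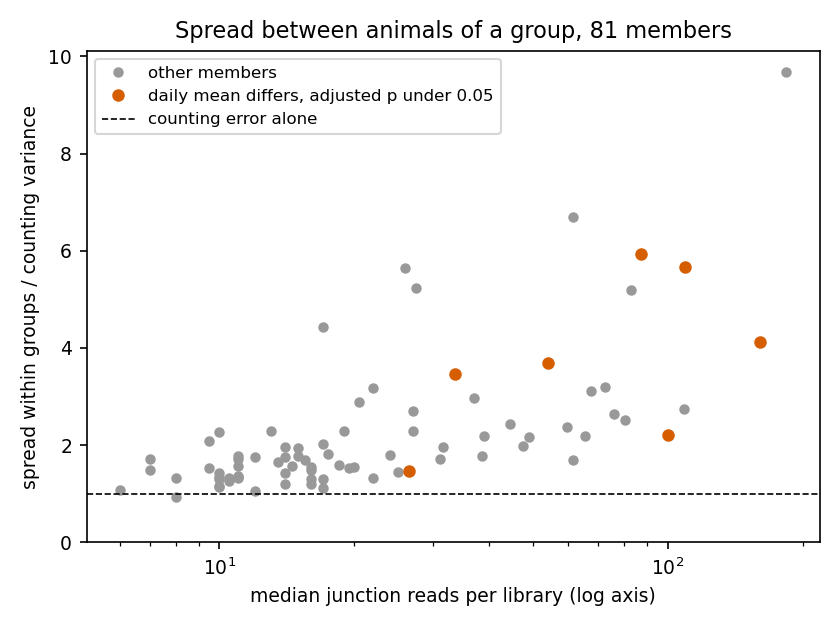
Spread between the 4 animals of a group, as a multiple of the counting variance, against median junction reads per library (log axis) for the 81 members. The dashed line marks counting error alone. Ratios run from 0.941 to 9.68. The 7 members whose daily mean differed between regimens (orange) lie above the line, as does every other member except novel_circ_0004050.

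The daily mean level was compared between regimens to ask whether the amount of each circRNA depended on the time of feeding. It is the level fitted over the 24-h cycle (the mesor). Of the 81 members, 7 differed at an adjusted p below 0.05 with limma, 6 of them higher under DRF and 1 lower. Over all 1131 circRNAs tested the same call was made for 0.619%, with 0.531% higher and 0.0884% lower under DRF. Every one of the 7 calls of the whole table was a member, and 0 of the 67 catalogued circRNAs above 0 in every library was called, where 5 had an unadjusted p below 0.05. The difference between these shares was not tested. Calls outside the members appeared with other processing. Members were 15 of 21 calls with limma-voom on the junction reads, and 18 of 20 when the 148 circRNAs above 0 in all libraries were fitted alone. Without NRF ZT16 replicate 3, 4 of the 7 members remained called. At an unadjusted p below 0.05, 20 members were higher and 6 lower under DRF, where the table as a whole had 6.63% and 2.12% (8.75% together).

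The size of these differences was modest. The members' differences (DRF minus NRF, log2) ran from -0.63 to 0.77 with a median of 0.12, beside a median of 0.15 over all circRNAs tested. In 58 of 81 members (71.6%) the fitted mean was higher under DRF. That split depended on the scaling. With each library scaled to equal junction reads it was 66.7%, and with median-of-ratios scaling it was 54.3%, when the calls were 3 higher and 3 lower instead of 6 and 1. The 95% confidence interval of the DRF to NRF ratio lay wholly within 1.5-fold in either direction for 60 members and within 2-fold for 79.

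**Figure D3:**
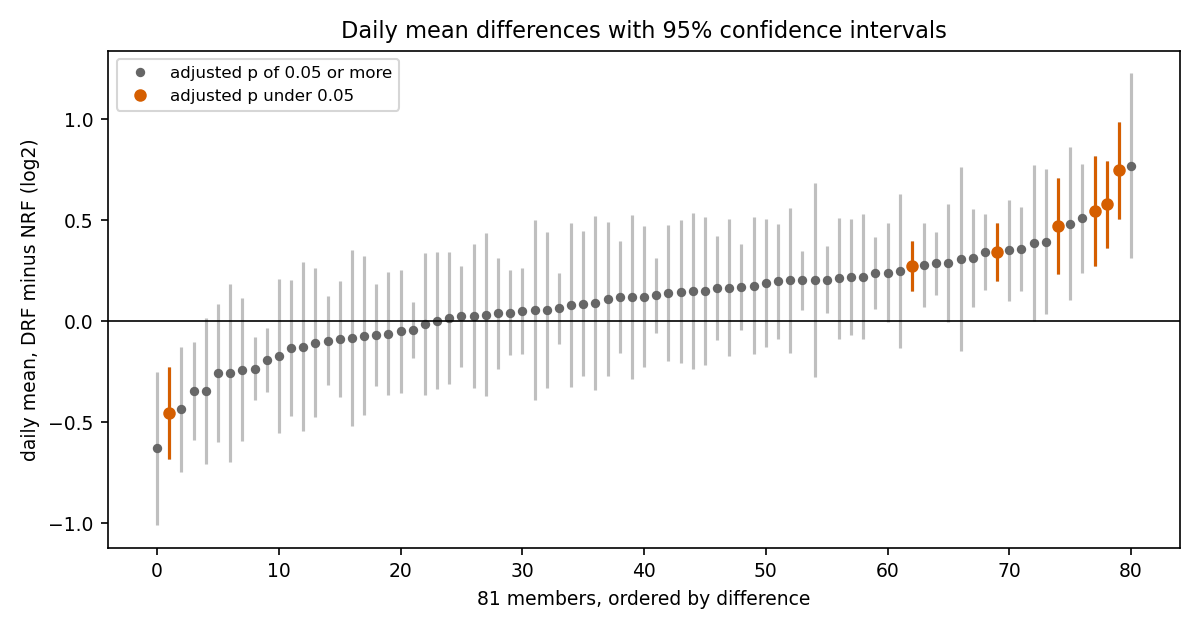
Difference in daily mean, DRF minus NRF on the log2 scale, for the 81 members in order of size, with 95% confidence intervals from limma. The 7 members at an adjusted p below 0.05 are orange. They include 6 above 0 and 1 below, and the member farthest to the right is uncalled because its interval is wide.

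The largest called difference was that of novel_circ_0003896. Its values ran from 5482 through a median of 10776 to 14067 in the 28 DRF libraries, and from 1037 through 6795 to 8783 in the 28 NRF libraries. Of the DRF libraries, 27 lay above the NRF median, and the DRF group mean was the higher at all 7 times. The 4 animals of each group did not overlap at 5 of those times. At ZT8 the DRF animals measured 10747, 12505, 13963 and 10915, and the NRF animals 5578, 8214, 6837 and 8746. The ratio of daily means was 1.68 (95% confidence interval 1.42 to 1.98, adjusted p = 4.98e-05 with limma). The lowest NRF value, 1037 from 9 reads, came from the library that stood apart, and without it the log2 difference went from 0.75 ± 0.12 (SE) to 0.64 ± 0.084, with an adjusted p of 3.34e-07. No rhythm was called in either regimen (adjusted p = 0.687 under DRF and 0.554 under NRF).

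A similar offset was seen in novel_circ_0012849. Its median was 4725 under DRF (range 2446 to 7005) and 3038 under NRF (range 1772 to 5762), and the DRF group mean was again the higher at all 7 times. At ZT0 the DRF animals measured 5508, 3646, 4803 and 5362, all above the NRF animals at 2452, 3125, 1985 and 2629. At that time alone the groups were separate. The ratio of daily means was 1.49 (95% confidence interval 1.29 to 1.74, adjusted p = 0.000807).

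In 2 abundant members the offset was smaller and more precise. The range of novel_circ_0004559 was 7799 to 19278 under DRF with a median of 13566, and 6398 to 16865 under NRF with a median of 11458. The groups overlapped when pooled over time but were separate at 3 of 7 times. At ZT16 the DRF animals measured 12124, 11304, 11501 and 12031 and the NRF animals 8006, 10488, 6796 and 9189. Its ratio was 1.21 (95% confidence interval 1.11 to 1.32, adjusted p = 0.0118). The other, novel_circ_0011229, had medians of 8736 (range 6074 to 10838) and 7114 (range 3225 to 10639), with a ratio of 1.27 (95% confidence interval 1.15 to 1.40, adjusted p = 0.00386). Its DRF mean was the higher at 5 of 7 times and the lower at ZT0 and ZT24.

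The calls with fewer reads were novel_circ_0011324 and novel_circ_0009297. The former had a median of 2805 under DRF (range 1676 to 5652) and of 2014 under NRF (range 806 to 4238), a ratio of 1.46 (95% confidence interval 1.21 to 1.76, adjusted p = 0.0306). The latter had a median of 2190 under DRF (range 1068 to 3328) and of 1617 under NRF (range 576 to 2683), a ratio of 1.39 (95% confidence interval 1.18 to 1.64, adjusted p = 0.0306). The ranges overlapped widely in both, although the DRF group mean was the higher at all 7 times in each. Without NRF ZT16 replicate 3 the adjusted p of each was 0.0543. With median-of-ratios scaling it was 0.115 for novel_circ_0011324 and 0.0602 for novel_circ_0009297, and it was 0.0575 for novel_circ_0004559. With a replicate number left out, the adjusted p with limma depended on which one. At its highest it was 0.251 for novel_circ_0011324 (without replicate 2), 0.346 for novel_circ_0009297 (without replicate 4) and 0.275 for novel_circ_0004559 (without replicate 3). Without replicate 1 the calls were kept, at 0.00639 for novel_circ_0011324, 0.0459 for novel_circ_0009297 and 0.0101 for novel_circ_0004559. By contrast, novel_circ_0003896, novel_circ_0012849 and novel_circ_0011229 were called under every alternative run.

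A single member was lower under DRF, novel_circ_0002722. Its median was 5415 under DRF (range 2318 to 12767) and 7986 under NRF (range 3199 to 13869), and its DRF mean was the lower at all 7 times. The ratio of daily means was 0.73 (95% confidence interval 0.623 to 0.855, adjusted p = 0.0306, and 0.0528 without NRF ZT16 replicate 3). With limma the adjusted p was 0.402 without replicate 1 and 0.346 without replicate 2, but below 0.05 without replicate 3 or replicate 4. The group means were farther apart in the light phase than late in the dark phase. At ZT4 the DRF animals measured 3653, 5760, 3912 and 3877 and the NRF animals 8678, 9312, 9497 and 6025, with no overlap. At ZT20 the values were 12767, 9161, 10734 and 7444 against 9960, 8952, 13869 and 8152, which overlapped. The repeated time of day did not give the same picture. At ZT0 the DRF animals measured 4493, 4768, 5721 and 6256, all below the NRF animals at 8675, 10829, 7211 and 7099. At ZT24 the values were 8880, 5080, 8875 and 8517 against 10271, 9570, 6912 and 6172, which overlapped. Just short of the threshold was novel_circ_0011219, with a log2 difference of 0.51 ± 0.13 (SE) and an adjusted p of 0.0517.

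**Figure D4:**
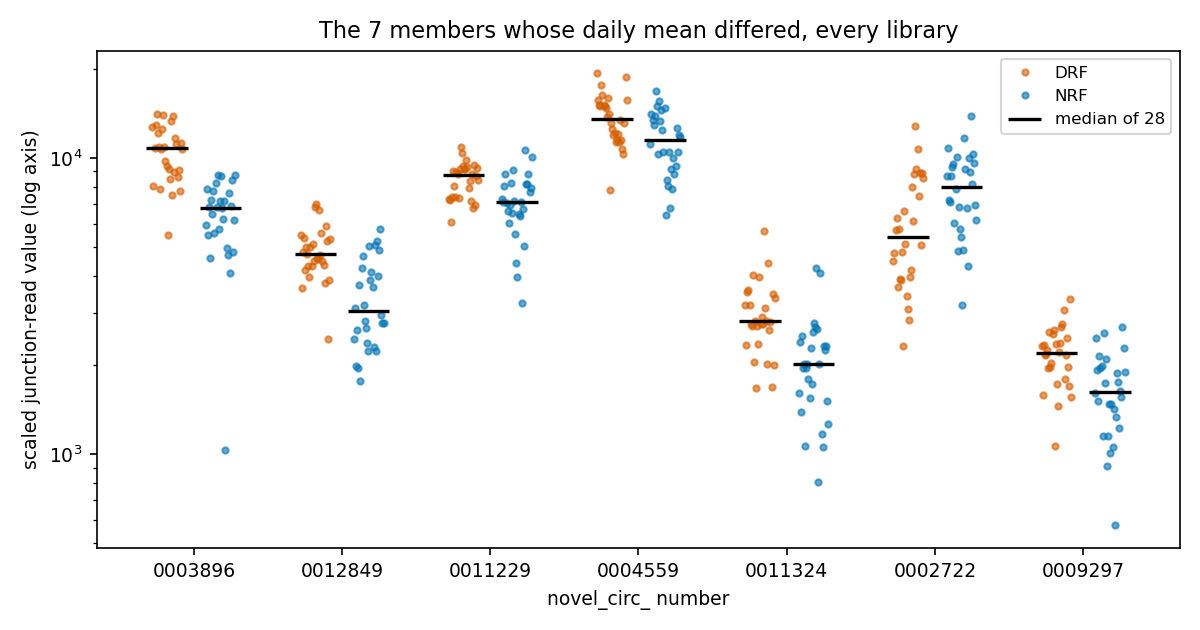
Scaled junction-read value (log axis) of the 7 members whose daily mean differed, in each of the 28 DRF (orange) and 28 NRF (blue) libraries, with the median as a black bar. The medians of novel_circ_0003896 are 10776 and 6795, and novel_circ_0002722 is the member with the higher NRF median.

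Daily rhythms were tested within each regimen by the fit of a 24-h cosine. Under DRF, 7 of 81 members were rhythmic at an adjusted p below 0.05 with limma, beside 2.74% of all circRNAs tested and 8 of the 67 catalogued circRNAs above 0 in every library. Under NRF, 2 members were rhythmic, beside 0.265% of all tested and 0 of the 67, of which 6 had an unadjusted p below 0.05. Both members called under NRF were also called under DRF, so 2 were dual-oscillating. A call in a single regimen does not show that the regimens differ, which was tested by itself. Fitted peaks of the 7 lay between 3.45 and 20.4 h, and their fitted peak-to-trough ratios between 1.47 and 2.39. At an unadjusted p below 0.05, 20 members were rhythmic under DRF (13.6% of all tested) and 15 under NRF (10.5% of all tested). The adjusted calls depended on the number of animals. Without NRF ZT16 replicate 3 the calls were also 7 and 2. With 3 animals per group, between 1 and 4 of the 7 remained called under DRF and between 0 and 1 of the 2 under NRF.

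The most abundant member, novel_circ_0010414, was dual-oscillating. Group means under DRF lay at 13042 ± 2086 (SD, n = 4) for ZT0 and 22938 ± 4633 for ZT16, and under NRF they climbed from 8726 ± 1602 at ZT8 to 22309 ± 4339 at ZT20. The DRF animals at ZT8 measured 15207, 12013, 19149 and 15018, all above the NRF animals at 7547, 11092, 8204 and 8061. The cosine crested at 17.3 h with DRF and 20.03 h with NRF, with peak-to-trough ratios of 1.74 and 2.43 (adjusted p = 0.00464 and 0.0038). The peaks were 2.76 h apart, inside the 0 to 4 h window that the study calls phase-locked. At ZT16 under NRF the library that stood apart measured 6566, beside 19662, 22126 and 19528 in the other animals. The circRNAs whose 14 group means followed it most closely were novel_circ_0011813, novel_circ_0011825 and novel_circ_0005780, with Spearman's rho of 0.855, 0.837 and 0.8286 over groups that share library scaling. None of these 3 was above 0 in every library.

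The other dual-oscillating member was novel_circ_0004559, whose profile had its highest means where those of novel_circ_0010414 were low. Under DRF it fell from 16226 ± 2055 (SD, n = 4) at ZT0 to 11353 ± 2416 at ZT12, and under NRF from 13986 ± 2769 at ZT4 to 8620 ± 1583 at ZT16. Fitted peaks stood 1.24 h apart, at 3.45 h with DRF and 4.69 h with NRF, with peak-to-trough ratios of 1.47 and 1.76 (adjusted p = 0.00527 and 0.0038). In both dual-oscillating members the fitted peaks of the regimens fell in the same phase of the light-dark cycle, although their feeding times were opposite.

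Among members called under DRF alone, novel_circ_0002722 had the largest fitted swing. Its DRF means ran from 3329 ± 489 (SD, n = 4) at ZT12 to 10026 ± 2268 at ZT20, and the 4 animals at ZT12 (3419, 3083, 2843 and 3970) all lay below the 4 at ZT20. The fitted peak was at 20.4 h with a peak-to-trough ratio of 2.39 (adjusted p = 0.00327). Under NRF the means ran from 4817 ± 1133 at ZT12 to 10233 ± 2534 at ZT20, with a fitted ratio of 1.59 and an adjusted p of 0.263. The same times thus held the lowest and the highest mean in both regimens.

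A second set of calls under DRF peaked near the start of the dark phase. For novel_circ_0012332 the mean was 6400 ± 606 (SD, n = 4) at ZT12 and 4162 ± 576 at ZT0, with a fitted peak at 15.2 h (adjusted p = 0.00527). For novel_circ_0005355 it was 2350 ± 622 at ZT12 and 1075 ± 430 at ZT0, with a fitted peak at 14.7 h (adjusted p = 0.0285). The mean of novel_circ_0003842, the seventh call by p, was 2420 ± 279 at ZT20 and 1326 ± 466 at ZT0 (adjusted p = 0.0379). By contrast, novel_circ_0009013 was highest early in the light phase, with 5514 ± 960 at ZT4 and 3332 ± 776 at ZT20, a fitted peak at 4.68 h and an adjusted p of 0.0123. None of the 4 was called under NRF, where their adjusted p lay at 0.427 or above.

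**Figure D5:**
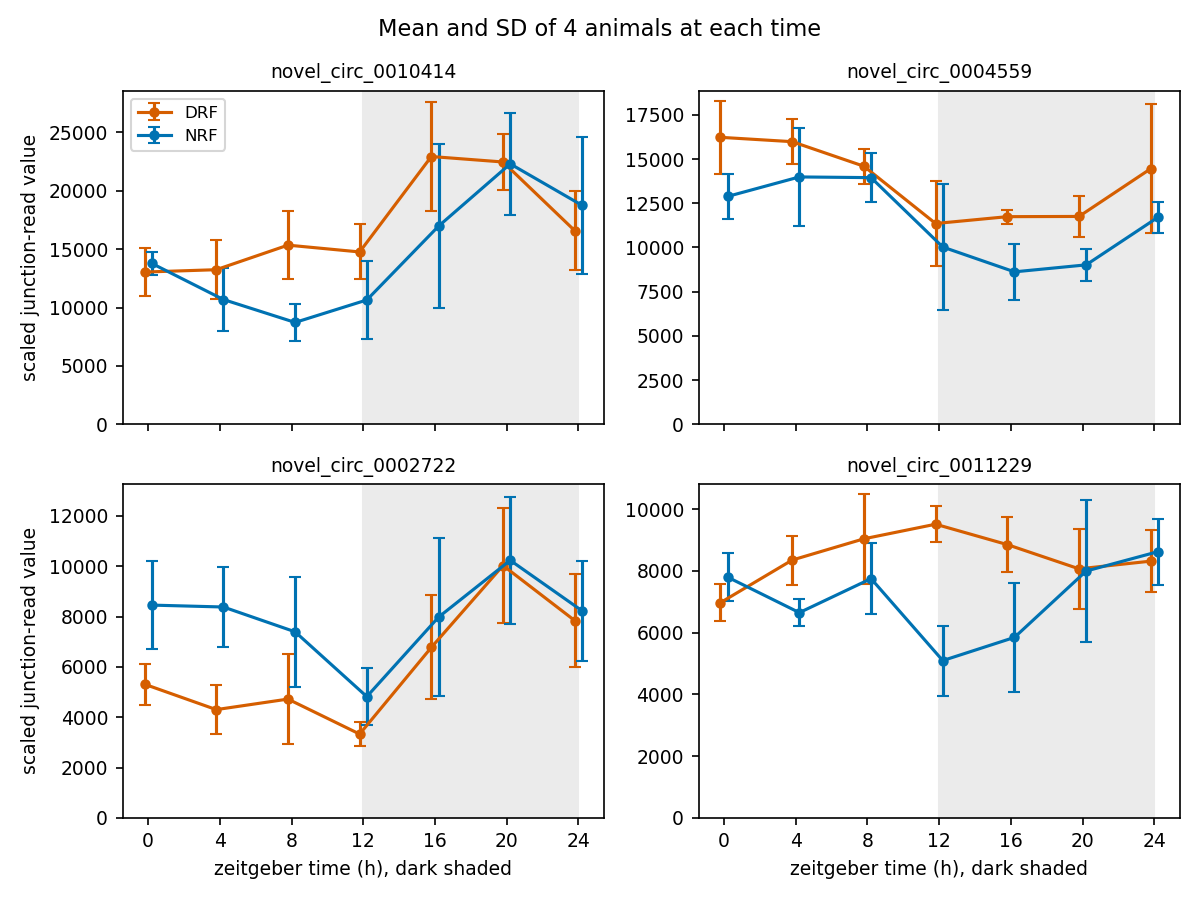
Scaled junction-read value (linear axis from 0) against zeitgeber time for 4 members, as the mean and SD of 4 animals under DRF (orange) and NRF (blue), with the dark phase shaded. The profiles of novel_circ_0010414 and novel_circ_0004559 rise and fall in the same part of the cycle in both regimens, novel_circ_0002722 parts in the light phase, and novel_circ_0011229 is 9514 under DRF and 5095 under NRF at ZT12.

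Whether the rhythm itself changed with feeding time was tested by the interaction of regimen with the cosine terms. No member passed an adjusted p of 0.05 with limma, and 0% of all circRNAs tested did, with or without NRF ZT16 replicate 3. At an unadjusted p below 0.05 there were 11 members, 13.6% of the 81, beside 7.07% of all tested. With limma-voom on the junction reads 1 member passed, novel_circ_0011229, at an adjusted p of 0.0202. In the limma test of scaled values it had the smallest p of the members and an adjusted p of 0.12. Under DRF its highest mean was at ZT12, where the animals measured 10363, 9395, 9137 and 9161. Under NRF its lowest mean was at ZT12, with animals at 5531, 4417, 3957 and 6477, in a group whose animals agreed less well across circRNAs. The fitted peaks, 11.4 h in DRF and 0.929 h in NRF, were 10.5 h apart, although neither regimen alone gave a called rhythm (adjusted p = 0.0927 and 0.246). The next smallest p belonged to novel_circ_0003890, with fitted peaks 8.05 h apart (adjusted p = 0.36), and to novel_circ_0010414 (adjusted p = 0.367).

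A test with no assumption on the shape of the profile, over the 7 differences between regimens at single times, called 2 members, novel_circ_0003896 and novel_circ_0011229, beside 0.531% of all circRNAs tested. Each had an adjusted p of 0.00652. At an unadjusted p below 0.05 there were 14 members, beside 7.69% of all tested. Both adjusted calls were also made without NRF ZT16 replicate 3. With a replicate number left out, 0 of the 2 were called without replicate 1 or replicate 4, and 1 of the 2 without replicate 2 or replicate 3. ZT24 and ZT0 are the same time of day, so their difference serves as a check of the series. No member differed between them under either regimen at an adjusted p below 0.05 with limma, beside 0% of all tested under DRF and 0.0884% under NRF. An unadjusted p below 0.05 was found for 3 members under DRF (5.57% of all tested) and 1 under NRF (4.07% of all tested). The adjusted counts of members were also 0 with limma-voom and without NRF ZT16 replicate 3.

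Fitted peaks were also tallied for all members, called or not, as a description. Under DRF 52 of 81 fell in the dark phase (64.2%, beside 56.1% of the 1131 circRNAs tested), and under NRF 30 of 81 (37.0%, beside 32.4%). The NRF figure of the members moved with the scaling. It was 44 of 81 with equal junction reads (54.3%, beside 36.4% of all tested). With median-of-ratios scaling it was 40 of 81 (49.4%, beside 35.1%). Most of these fitted rhythms were not called.

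Since the files name no host genes, the nearest linear readout was the expression of genes known to act on circRNAs. Of a list of 28, 27 could be tested among the genes of the same livers. The rhythm differed between regimens in 18 of them at an adjusted p below 0.05 with limma, beside 40.7% of all genes. In 14 of the 18 the fitted peaks were at least 8 h apart, a spacing that was not tallied over all genes. Some of the 14 had no called rhythm in a regimen, such as Adarb1 under DRF (adjusted p = 0.125 with limma) and Tnrc6a under NRF (adjusted p = 0.439). A fitted peak is loosely placed in such a case. Among the 16 formation genes 10 differed. Sfpq, which encodes a nuclear splicing factor, had its DRF peak at 6.58 h and its NRF peak at 18.8 h (adjusted p = 1.54e-11), and Hnrnpl, which encodes a regulator of alternative splicing, at 21.8 and 6.77 h (adjusted p = 1.43e-09). Esrp2, an epithelial splicing regulator, had fitted peaks at 13.4 and 1.32 h (adjusted p = 0.000195), but its rhythm was not called under DRF (adjusted p = 0.538). Dhx9, a helicase that unwinds paired repeats and opposes back-splicing, also differed (adjusted p = 0.00799 with limma). Its fitted peaks were 2.13 h apart, and its log2 amplitude was 0.11 under DRF and 0.28 under NRF. The test takes timing and amplitude together. Qk, whose product binds introns and favours circle formation, gave an adjusted p of 0.754.

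Of the 2 export genes tested, the helicase gene Ddx39b differed, with peaks 9.86 h apart (adjusted p = 4.46e-07), and Xpo4 had an adjusted p of 0.409. Of the 9 turnover genes, 7 differed. Upf1, a helicase of RNA decay, had its DRF peak at 5.26 h and its NRF peak at 17.8 h (adjusted p = 1.47e-10), and G3bp2, a stress granule protein, at 6.35 and 19.9 h (adjusted p = 2.16e-08). Ythdf2, a reader of methylated RNA, had peaks 9.90 h apart (adjusted p = 1.68e-05). No DRF rhythm was called in G3bp2 or Ythdf2 (adjusted p = 0.102 and 0.512 with limma), so their DRF peaks are loosely placed. The daily mean differed in 3 of the list (7.39% of all genes did). Adar and Adarb1, which edit paired RNA, were lower under DRF by a log2 difference of -0.16 ± 0.038 (SE, adjusted p = 0.00435) and -0.15 ± 0.048 (SE, adjusted p = 0.0396). Rida, which links Ythdf2 to RNA cleavage, was higher by 0.13 ± 0.039 (SE, adjusted p = 0.0319). These daily mean calls depended on the processing: 0 of the list were called with the gene values as deposited, 0 without replicate 3 and 1 without replicate 4. The part of these genes in the members' levels was not tested.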

How the data were processed

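RNA of 56 mouse livers was sequenced by the authors after ribosomal depletion, as the protocol text says (the molecule field says polyA RNA), and each column was assigned from its name and the labels. Builds mm10 and GRCm38.p6 and the tools CASAVA 1.8 and featureCounts 1.5.0-p3 stand in the submitters' processing notes, and the circRNA caller, and whether counting was stranded, are not given in the sources used here. The deposited circRNA values are log2(1 + scaled junction reads), scaled per library by the authors. They were taken back as 2 to the value, minus 1. In each library the results were whole multiples, within 0.02, of the value of 1 read. The deposited gene values, named TPM, are treated as a score, because value times exon length follows a logarithm of counts. They were rebuilt as scaled counts with GENCODE exon lengths, in which 1 unit stands for 304 to 723 counts, so log2 differences of low genes are understated. The rebuild was checked at low counts alone. Scaled counts of high genes depend steeply on the exon length used and are rough, above all for Alb.

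All circRNAs above 0 in at least 28 libraries (1131) were fitted on log2(value + 1) with limma 3.58.1 in R 4.3.3 (empirical Bayes with trend) and a 24-h cosine model, and p-values were adjusted by Benjamini-Hochberg over all of them. The rhythm was tested within a regimen, and the daily mean and the rhythm difference over all 56 libraries. Steps were tested on simulated data. The study's rhythm tools were replaced by this model. The labels name separate samples but no cultures, cages or dates, and samples with the same number are different animals. The members and lists were chosen with earlier results of these data known. Members named are those with the smallest p among calls (up to 10 for the daily mean, up to 6 per rhythm), the 3 smallest p where none was called, the 6 highest and 3 lowest levels, and the 3 smallest and 3 largest CVs. In addition, novel_circ_0003842, novel_circ_0011219 and the 3 members scaled again were named after their values were seen. Other pseudocounts, filters, scalings, libraries left out and limma-voom were tried. Precision is limited by junction reads, and the 95% confidence intervals are from limma, which uses the spread between libraries. Of the marker lists, hepatocyte genes were high, Kupffer, endothelial and stellate genes were present (Clec4f 68.2 to 139, Stab2 155 to 252, Dcn 128 to 193 scaled counts), and bile duct and acinar genes were near 0 (Epcam 0.945 to 3.75, Cela1 1.58 to 4.73).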

Additional observations from a re-analysis of the deposited data

Results flagged for a closer look

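Among the 7 members whose daily mean differed and 2 library measures, 126 groups of 4 animals were examined for a value far from the rest, and 9 held one. Chance flags about 1 in 20 such groups. In DRF ZT12, replicate 3 measured 5482 for novel_circ_0003896, where the others lay between 9161 and 9722. In NRF ZT24, replicate 1 measured 5762 for novel_circ_0012849, beside 2769 to 2951. In DRF ZT0, replicate 3 measured 6074 for novel_circ_0011229, beside 7199 to 7373, and replicate 1 measured 19278 for novel_circ_0004559, beside 14969 to 15614. For novel_circ_0011324, DRF ZT16 replicate 2 was high at 5652 (others 2755 to 3106) and NRF ZT4 replicate 3 low at 1063 (others 1949 to 2019). For novel_circ_0002722, DRF ZT4 replicate 2 was high at 5760 (others 3653 to 3912) and DRF ZT24 replicate 2 low at 5080 (others 8517 to 8880). In NRF ZT4 replicate 1 the members took 24.6% of junction reads, beside 21.8% to 22.2%.

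The time profile of 18 genes for circRNA formation, export and turnover differed between the regimens by the interaction test with limma, where 40.7% of all genes passed. Of the members 0 passed the same test, as did 0% of all circRNAs tested, while 11 members had an unadjusted p below 0.05 and 1 passed with limma-voom. The shares of the genes and of the circRNAs were not tested against each other.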

How the results depend on the processing

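When only the 148 circRNAs above 0 in all 56 libraries were fitted, called members were 14 of 26 calls for the DRF rhythm, 18 of 20 for the daily mean and 5 of 5 for a difference at any time. With limma-voom they were 15 of 21 calls for the daily mean, 6 of 13 for any time and 1 of 1 for the rhythm difference, and with equal junction reads 4 of 8 for any time. Combining the rank and cosine tests gave 15 members of 91 calls under DRF and 8 of 37 under NRF, and the exact rank test gave 1 of 1 under NRF. Without NRF ZT16 replicate 3, chosen after seeing the data, the daily mean gave 4. The cause of these shifts was not tested. Leaving out each replicate number in turn gave 1 to 4 members for the DRF rhythm, 0 to 2 for the NRF rhythm, 4 to 7 for the daily mean and 0 to 1 for any time. Without NRF ZT8 replicate 4 the daily mean gave 5, and novel_circ_0002722 and novel_circ_0009297 had adjusted p of 0.057 and 0.0744. Of the listed genes, 3 differed in daily mean, but 0 with the values as deposited and 0 to 2 with a replicate left out. Over the 15 called results of named members, 200 of 240 alternatives kept the call and 40 lost it. Over the 3 uncalled rhythm differences, 47 of 48 stayed uncalled and 1 gained a call. None of the daily mean differences of named members turned direction. The rhythm results could not turn, because an amplitude or a distance between peaks has no sign. With the replicate block the counts were 7, 2, 0, 8, 2, 0 and 0 (DRF rhythm, NRF rhythm, rhythm difference, daily mean, any time, and ZT24 against ZT0 under DRF and NRF) and 18 and 3 listed genes. Same-numbered animals deviated together with a mean correlation of 0.00778 (-0.32 to 0.448), and 17 of 56 libraries matched their own number best. With so few reads behind most members, these values cannot show whether the numbers mark a batch. Results on host genes were not run, because the files used here do not pair circRNA names with genes.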
